A study of Homo sapiens with 24 samples.

Results

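Tight junctions seal the space between neighbouring epithelial cells, and in the liver they separate the bile canaliculus from the blood side of the hepatocyte. Claudins form the strands of the junction across the gap, occludin and the adhesion molecule JAM-A (gene *F11R*) lie beside them in the membrane, and the plaque proteins ZO-1 (gene *TJP1*) and cingulin (gene *CGN*) tie these proteins to actin. TGFb signals through receptor serine kinases to SMAD proteins and is known for loosening epithelial junctions, while galunisertib (LY2157299) is a small molecule that blocks the type 1 TGFb receptor.

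The expression of 10 tight junction genes was followed in 2 human hepatocellular carcinoma cell lines. The genes were the claudins *CLDN1*, *CLDN2*, *CLDN3*, *CLDN4*, *CLDN6* and *CLDN7*, the transmembrane proteins *OCLN* and *F11R*, and the plaque proteins *TJP1* and *CGN*. They were picked by name, without a cut on their values, but with earlier results of these data known. The array held 32614 named genes, and 12 of its 58201 probes measured the members. *OCLN* and *F11R* had 2 probes each and the others 1. All 10 were assigned through the RefSeq accession of their probes.

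PLC/PRF/5 and SNU-449 cells were serum-starved overnight and then left as untreated controls, or exposed for 16 h to 1 ng/mL recombinant TGFb1, to 10 µM galunisertib, or to both. Each of the 8 groups had 3 independent cultures, each hybridised to a one-colour Agilent array, giving 24 arrays on 3 slides of 8. Levels are log2 of the processed signal over the 75th percentile of its own array, so 0 is the brightness of that percentile. Signals under a floor of 5.7% of the percentile were set to it, a log2 level of -4.13. One array is read once, so its number of cultures limits the precision.

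The 75th percentile lay between 145 and 262 intensity units, and the lowest was that of the first PLC/PRF/5 control. All 7 hepatocyte markers were well above background on every PLC/PRF/5 array. Only 4 or 5 of them were on the SNU-449 arrays, where *APOB* and *HNF4A* were well above background on none. Of 6 epithelial markers, 3 or 4 were well above background on each PLC/PRF/5 array and 2 or 3 on each SNU-449 array, and their summed level, as log2, lay between 8.86 and 9.44 in PLC/PRF/5 and between 5.74 and 6.56 in SNU-449. *EPCAM* was detected on 12 of 12 PLC/PRF/5 arrays and on 1 of SNU-449, and the regulator *ESRP1* on 0 and 1. Of 5 mesenchymal markers, all were well above background on each PLC/PRF/5 array and 4 or 5 on each SNU-449 array. Their summed level lay between 7.38 and 7.89 in PLC/PRF/5 and between 8.25 and 9.13 in SNU-449. *FN1* went the other way, detected on 12 of 12 PLC/PRF/5 arrays and on 5 of SNU-449. Of the markers of other cell types, *PECAM1* was well above background on no array, whereas *PTPRC* and *VWF* gave weak signals, at levels from -3.99 to -2.31, on nearly all arrays of both lines. *CDH5* was well above background on 8 PLC/PRF/5 and 5 SNU-449 arrays, and *CD3E* on 4 and 0.

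Every TGFb array sat in one row of its slide and every array without TGFb in the other, so position on the slide and TGFb cannot be told apart. *SMAD7*, a direct feedback target of TGFb, had log2 changes with TGFb of 0.80 in PLC/PRF/5 (adjusted p = 9.0e-04) and 0.65 in SNU-449 (0.0114). When galunisertib was added these were -1.54 (4.6e-06) and -1.16 (2.3e-04).

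The promoters of the 3 claudins whose levels the treatment results turn on are shown first, so that they can be set beside the values. Each is the 250 bases before the start site as RefSeq annotates it on GRCh38.p14, read 5′ to 3′ along the gene. Capitals mark the letters CANNTG, the core of an E-box, which Snail and ZEB repressors bind, and CAGACA or its reverse complement TGTCTG, which holds letters that SMAD proteins bind. The window of *CLDN1* is chr3:190322447-190322696 on the minus strand, that of *CLDN3* chr7:73770271-73770520 on the minus strand and that of *CLDN4* chr7:73830746-73830995 on the plus strand.
CLDN1: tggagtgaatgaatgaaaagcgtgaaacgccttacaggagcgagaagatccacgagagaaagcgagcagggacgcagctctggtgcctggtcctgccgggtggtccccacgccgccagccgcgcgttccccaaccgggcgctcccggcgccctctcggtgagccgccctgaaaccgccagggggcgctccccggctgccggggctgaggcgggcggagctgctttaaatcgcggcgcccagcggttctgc
CLDN3: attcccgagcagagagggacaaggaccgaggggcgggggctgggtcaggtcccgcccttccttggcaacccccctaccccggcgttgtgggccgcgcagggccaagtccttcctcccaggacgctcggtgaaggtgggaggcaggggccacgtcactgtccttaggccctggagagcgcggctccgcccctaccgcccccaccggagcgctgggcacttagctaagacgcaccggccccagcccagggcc
CLDN4: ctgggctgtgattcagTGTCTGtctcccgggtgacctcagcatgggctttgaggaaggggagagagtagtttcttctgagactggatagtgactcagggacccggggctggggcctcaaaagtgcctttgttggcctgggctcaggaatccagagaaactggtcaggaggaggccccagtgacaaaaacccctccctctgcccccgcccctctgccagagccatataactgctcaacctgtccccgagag

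The *CLDN4* window held 1 match to CAGACA on either strand, 234 bases before the start site, and those of *CLDN1* and *CLDN3* held none. None of the 3 held CANNTG. Over all 35116 windows of this length, CAGACA on either strand was found in 13.6%, CANNTG in 61.8% and its subset CAGGTG, also on either strand, in 17.5%. Of the 9 members with a window, 2 held CAGACA on either strand, *CLDN4* and *OCLN*, the latter with 1 match in 1 of its windows. *CLDN7*, *OCLN* and *TJP1* held CAGGTG, *CLDN7* with 4 matches in 1 of its windows. No window was matched for *F11R*. Such a match is a description of the letters only.

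The question between the untreated lines was how far their junction genes differed before any treatment. PLC/PRF/5 had the higher levels of *CLDN1*, *CLDN3*, *CLDN4*, *OCLN*, *F11R* and *CGN*, and SNU-449 those of *CLDN2* and *TJP1*. Of the 9 members tested, 8 were called at a Benjamini-Hochberg adjusted p below 0.05 over all genes, each by more than 2-fold, in a comparison where 68.5% of all 18105 genes were called. The median difference of the 9 (PLC/PRF/5 minus SNU-449) was 1.45, beside 0.07 for all genes. The groups did not overlap for any of the 8, which held for 72.3% of the 18087 genes measured on all 6 arrays.

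*CLDN3*, a strand-forming claudin of the liver, had the largest difference of the members tested. Its controls read 3.77, 3.74 and 3.70 in PLC/PRF/5 and -2.23, -1.36 and -1.25 in SNU-449. The lines thus differed by 5.35 ± 0.19 (standard error) on the log2 scale or 40.9-fold (limma, adjusted p = 1.5e-15). *CLDN1*, also a barrier claudin and a coreceptor for hepatitis C virus, read 4.21, 4.36 and 4.54 against 1.17, 1.27 and 0.91, a difference of 3.25 ± 0.12 or 9.54-fold (2.4e-15). All 3 arrays of PLC/PRF/5 lay above all those of SNU-449 for both genes. *CLDN4*, which tightens junctions against sodium, was dim in both lines, with -2.81, -2.43 and -2.54 in PLC/PRF/5 and all SNU-449 controls at the floor. As the SNU-449 controls were not well above background, only a bound could be given: PLC/PRF/5 exceeded them at least 2.82-fold (adjusted p = 5.8e-10). At the floor those controls had no spread, so this p does not measure their scatter. The log2 difference was 0.52 under normexp background correction, which compresses dim signals, and 3.16 in the deposited normalized values.

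*CLDN2* went the other way. This claudin forms a cation-permeable pore and is a leaky member of the family. Its levels were -1.59, -1.67 and -1.57 in PLC/PRF/5 and 3.23, 3.62 and 2.93 in SNU-449, with -4.87 ± 0.62 between them or 29.2-fold (9.2e-07). The order of the 2 lines was thus reversed against *CLDN1* and *CLDN3*, as the plot of all members by array shows.

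Among the partners of the claudins, *CGN* read 3.87, 4.05 and 4.25 in PLC/PRF/5 and 0.70, 0.75 and 0.81 in SNU-449, which is 3.31 ± 0.11 or 9.88-fold apart (1.2e-15). *F11R* was higher in PLC/PRF/5 by 1.45 ± 0.10 (1.3e-10), and its second probe gave 2.86, so the direction was shared and the size was not. The 2 probes of *OCLN* likewise gave 1.06 ± 0.16 (5.4e-06) and 1.88. *TJP1*, the scaffold that claudins and occludin bind, was higher in SNU-449, with 2.90, 3.05 and 3.14 against 1.82, 1.90 and 1.94, a difference of -1.14 ± 0.09 (1.2e-09).

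*CLDN7* was not called, with a difference of 0.25 and a 95% interval from -0.61 to 1.10 (adjusted p = 0.603). It was well above background on 16 of 24 arrays. *CLDN6*, an oncofetal claudin, was on only 9 and passed the filter in no fit. For both genes the array of replicate 2 was the highest in all 8 groups. The second replicates share a slide, and its part in these signals was not tested.

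**Figure D1:**
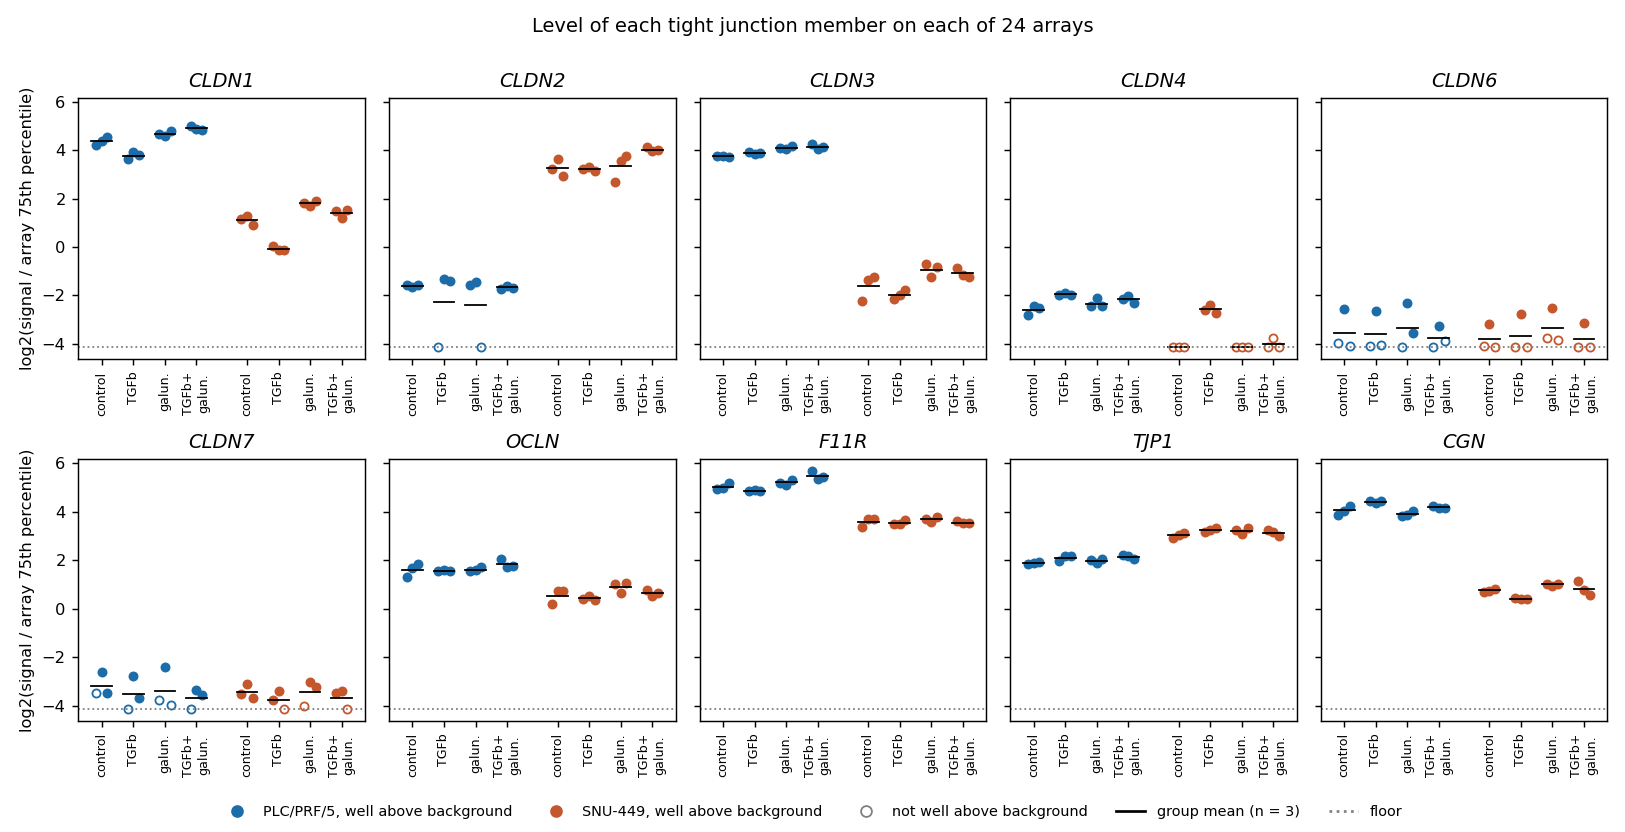
Level of each member on each array, as log2 of signal over the 75th percentile of the array (vertical axis, shared by all panels), with 4 treatments in PLC/PRF/5 (blue) and 4 in SNU-449 (orange), replicates 1 to 3 from left to right. Filled points were well above background, open points were not, black bars are means of 3 arrays and the dotted line is the floor at -4.13. *CLDN1*, *CLDN3* and *CGN* stood higher in PLC/PRF/5, *CLDN2* in SNU-449, and *CLDN4* in SNU-449 was well above background with TGFb alone and on no other array. Heights are not comparable between genes, since probes differ in brightness.

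Of the 51 other tight junction genes listed, 40 were tested between the untreated lines and 33 were called, 19 with the higher level in PLC/PRF/5 and 14 with the lower, beside the 68.5% of all genes. Those with the largest differences included the apical polarity protein *CRB3*, with means of 2.56 in PLC/PRF/5 and -3.99 in SNU-449, where it was well above background on 1 of the 3 controls, and the claudin-family strand protein *CLDN11*, not well above background in PLC/PRF/5 and at least 42.1-fold higher in SNU-449. *JAM2*, a relative of *F11R*, was at least 36.1-fold higher in SNU-449, and *MARVELD3*, a relative of occludin, at least 11.5-fold higher in PLC/PRF/5. The scaffold *MPDZ* differed by -2.99.

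Under TGFb alone, which cannot be told apart from position on the slide, *CLDN1* was called lower and *CLDN4* higher in both lines. In SNU-449 these were the members called, 2 of 9, beside 10.3% of 16211 genes, and *CLDN4* was among the 9 tested only because its TGFb arrays passed the filter. With *CGN*, PLC/PRF/5 had 3 of 8 called, beside 13.4% of 16839 genes. The members' median change in SNU-449 was -0.10, beside 0.02 for all genes, and that in PLC/PRF/5 was 0.06, beside -0.03. Where groups of a treatment comparison are said not to overlap, the share of all genes for which this held was not counted.

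*CLDN1* in SNU-449 read 1.17, 1.27 and 0.91 in the controls and 0.06, -0.14 and -0.13 with TGFb. It fell by 1.19 on the log2 scale, or 2.28-fold (standard error 0.13, adjusted p = 2.5e-04). The groups did not overlap, and the differences within slides 1, 2 and 3 were -1.12, -1.41 and -1.04. It read 4.21, 4.36 and 4.54 in PLC/PRF/5 without and 3.65, 3.90 and 3.78 with TGFb, a change of -0.59 ± 0.10 or 1.51-fold (0.00418), with -0.56, -0.46 and -0.76 within slides. The effect in SNU-449 minus that in PLC/PRF/5 was -0.59 (95% interval -0.94 to -0.25, adjusted p = 0.0277). This difference was not called without any 1 of 8 of the 12 arrays (adjusted p 0.0550 to 0.0777), which were control replicates 1 and 2 and TGFb replicates 2 and 3 of each line. With the arrays scaled to their median, neither it nor the fall in PLC/PRF/5 was called (0.573 and 0.183). Over all alternatives the difference between the lines kept its call in 11 of 23.

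*CLDN4* was at the floor on all 3 SNU-449 controls, with intensities of 4.67, 13.2 and -0.809, and reached log2 levels of -2.59, -2.40 and -2.71 with TGFb, at intensities of 43.3, 43.2 and 37.4. The TGFb arrays were the only ones of SNU-449 on which it was well above background, and it entered the fit only through them, so that its call is not independent of the filter. Its TGFb arrays exceeded the controls at least 2.87-fold (adjusted p = 1.9e-05, and 1.4e-04 with no filter, over 32614 genes). The floor left the SNU-449 control and galunisertib arrays no spread (standard deviation 0). Adjusted p from fits that hold these arrays therefore do not measure their scatter. The change with TGFb in SNU-449 was 0.38 under normexp (0.0224) and 3.27 in the deposited values (0.0191). The PLC/PRF/5 arrays moved from -2.81, -2.43 and -2.54 to -1.99, -1.89 and -1.97, a rise of 0.64 ± 0.12 (0.00700), with 0.82, 0.54 and 0.57 within slides. Under normexp this rise was 0.11 and not called (adjusted p = 0.460). The effect in SNU-449 minus that in PLC/PRF/5 was 0.92 (0.00116) with the SNU-449 controls at the floor, 0.27 under normexp and 2.61 in the deposited normalized values, neither of them called (0.290 and 0.0664).

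*CGN* had differences of opposite sign in the 2 lines. Its level in PLC/PRF/5 went from 3.87, 4.05 and 4.25 to 4.46, 4.35 and 4.44, a rise of 0.36 ± 0.10 (adjusted p = 0.0383). In SNU-449 it went from 0.70, 0.75 and 0.81 to 0.43, 0.40 and 0.38, groups that did not overlap, with a change of -0.35 ± 0.13 that did not pass (0.116). The difference between the lines was itself called, at -0.71 ± 0.16 (0.00695). The rise in PLC/PRF/5 was not called without control replicate 1 or 2, or any 1 of the TGFb arrays (adjusted p 0.0688 to 0.125).

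Other members were not called with TGFb. *TJP1* had a change of 0.22 in each line, with a 95% interval from 0.02 to 0.41 in PLC/PRF/5 (adjusted p = 0.137) and from -0.01 to 0.45 in SNU-449 (0.243). In the order SNU-449, PLC/PRF/5, *OCLN* had -0.10 and -0.03 and *F11R* -0.05 and -0.16, by their brighter probes. In the same order *CLDN3* had -0.36 and 0.15, and all these had adjusted p of 0.215 or more. The second probe of *F11R* gave 0.67, with groups that did not overlap, and -0.17 (0.235 and 0.232 over all probes). That of *OCLN* gave -0.25 and -0.90 (0.924 and 0.210), so the probes of these genes differed in size or sign. *CLDN2* in SNU-449 had a change of -0.02 with an interval from -0.59 to 0.54. Its spot in PLC/PRF/5 fell to the floor on TGFb replicate 1, while the other 2 slides gave 0.36 and 0.15. This spot lies in column 160 of 164 on the array.

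**Figure D2:**
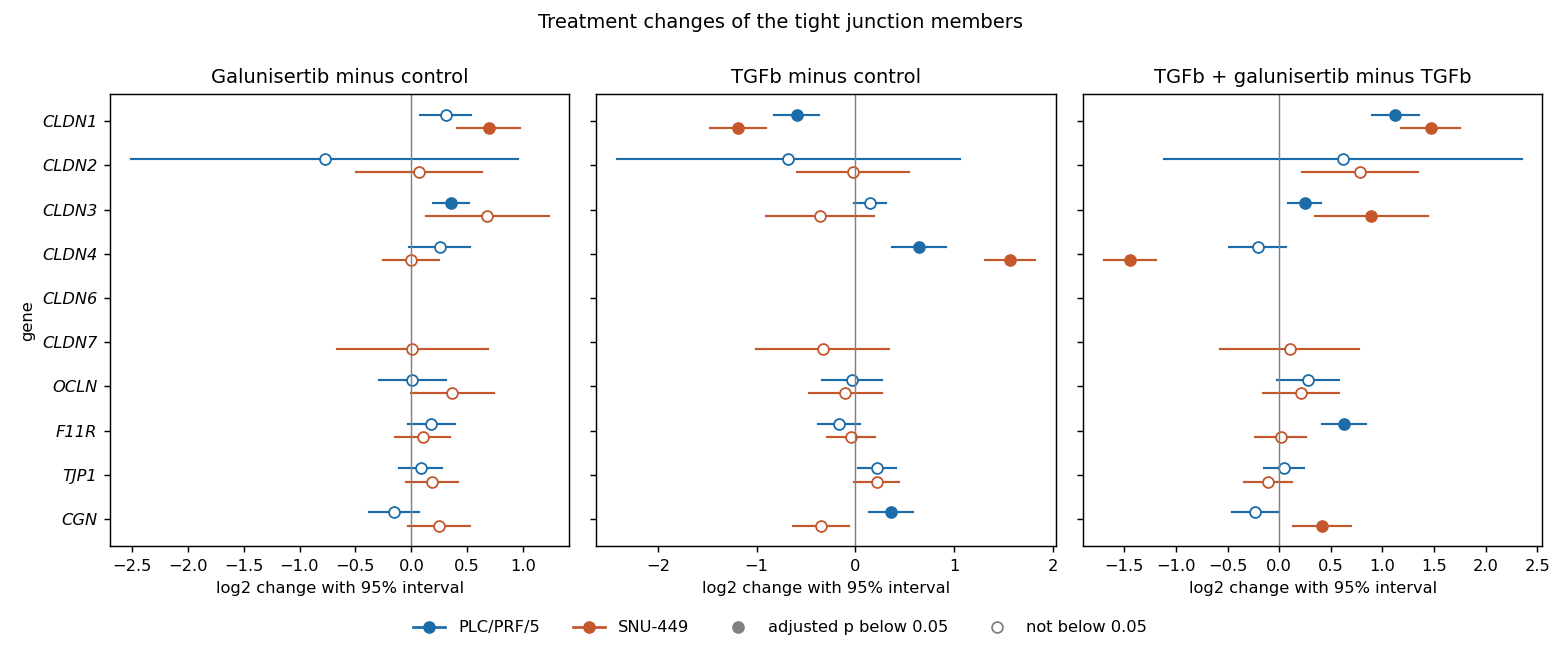
Log2 change of each member (horizontal axis) with galunisertib alone, TGFb alone and galunisertib added to TGFb, in PLC/PRF/5 (blue) and SNU-449 (orange), with 95% intervals from limma and 3 arrays per group. Filled points had an adjusted p below 0.05. *CLDN6* was tested in neither line and *CLDN7* only in SNU-449. *CLDN1* lay left of 0 with TGFb and right of 0 when galunisertib was added, and *CLDN4* in SNU-449 the reverse.

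Galunisertib alone asks what ongoing receptor activity contributed without added ligand. In SNU-449, 1 of 9 members was called, beside 7.17% of all genes. This was *CLDN1*, with 1.17, 1.27 and 0.91 in the controls and 1.83, 1.69 and 1.91 with galunisertib, a rise of 0.69 ± 0.13 or 1.61-fold (adjusted p = 0.0122), and 0.66, 0.42 and 1.00 within slides. It was not called with the arrays scaled to their median (0.151) or in a fit on the 6 compared arrays (0.0777). *CLDN3* went from -2.23, -1.36 and -1.25 to -0.72, -1.24 and -0.85, groups that did not overlap, with a change of 0.68 ± 0.25 that was not called (0.123). Its within-slide differences of 1.51, 0.12 and 0.41 show that the first slide carried much of it. The median change of the 9 was 0.19, beside 0.09 for all genes.

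Of the 8 members tested in PLC/PRF/5, 1 was called, beside 5.31% of all genes. This was *CLDN3*, which went from 3.77, 3.74 and 3.70 to 4.09, 4.04 and 4.16, a rise of 0.36 ± 0.07 or 1.28-fold (adjusted p = 0.0211). Without control replicate 2 or 3, or galunisertib replicate 1 or 3, the adjusted p was 0.0523 to 0.0731, and with median scaling it was 0.431. *CLDN1* had a change of 0.31 ± 0.10 (0.112), with groups that did not overlap. *OCLN* had 0.01 by its brighter probe and -1.65 by the other, which lies in the first column of the array and was not called either (0.0617 over all probes).

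The galunisertib effects of the 2 lines were not shown to differ for any member. None of 9 was called by limma, beside 5.82% of all genes, and 2 had an unadjusted p below 0.05. These were *CLDN1*, with a difference of 0.38 (SNU-449 minus PLC/PRF/5, interval 0.04 to 0.73, adjusted p = 0.204), and *CGN*, with 0.40 (interval 0.07 to 0.74, 0.164). Its own values were -0.16 in PLC/PRF/5 and 0.25 in SNU-449, neither called.

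Galunisertib added to TGFb was compared with TGFb alone. *CLDN1* rose in both lines and *CLDN3* rose in both, whereas *CLDN4* fell in SNU-449. In SNU-449, 4 of 9 members were called (*CLDN4* again tested through its TGFb arrays alone), beside 16.9% of all genes, with a median change of 0.21 beside 0.01. The count was 3 of 8 in PLC/PRF/5, a share no higher than the 38.9% of all genes, with a median of 0.26 beside 0.06. These contrasts and those of TGFb against control share the TGFb arrays.

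*CLDN1* in SNU-449 went from 0.06, -0.14 and -0.13 with TGFb to 1.49, 1.18 and 1.52 with both, a rise of 1.47 ± 0.13 or 2.76-fold (adjusted p = 4.1e-05). The same gene in PLC/PRF/5 went from 3.65, 3.90 and 3.78 to 5.00, 4.85 and 4.85, a rise of 1.13 ± 0.10 or 2.18-fold (3.0e-05). The 3 slides gave 1.36, 0.95 and 1.07 in PLC/PRF/5 and 1.44, 1.32 and 1.64 in SNU-449. In both lines the mean with both agents lay above that of the untreated controls. It was 1.39 against 1.12 in SNU-449 and 4.90 against 4.37 in PLC/PRF/5, differences that were given no test. The SNU-449 groups overlapped, with 1.18 on combined replicate 2 and 1.27 on control replicate 2. Those of PLC/PRF/5 did not, with 4.85 as the lowest combined level and 4.54 as the highest control level.

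*CLDN4* in SNU-449 returned to the floor on replicates 1 and 3 and to -3.78 on replicate 2, and was at least 2.59-fold lower than with TGFb alone (adjusted p = 1.9e-05). That p again comes from a fit whose floored control and galunisertib arrays had no spread. The change was -0.33 under normexp (0.0319) and was not called in the deposited normalized values (0.137). In PLC/PRF/5 its levels were -2.16, -2.01 and -2.31, a change of -0.21 ± 0.12 (0.214).

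*CLDN3* rose by 0.89 ± 0.25 in SNU-449 (adjusted p = 0.0318), from -2.14, -2.00 and -1.78 to -0.87, -1.14 and -1.23. Leaving out any 1 of the 6 arrays ended this call (adjusted p 0.0548 to 0.102). Its rise in PLC/PRF/5 was 0.25 ± 0.07 (0.0198), and was not called without TGFb replicate 2 or 3 or combined replicate 1 (0.0575 to 0.0686). With the 75th percentile taken over the probes detected on all arrays, that rise was 0.07 (0.352).

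*F11R* in PLC/PRF/5 went from 4.85, 4.89 and 4.87 to 5.67, 5.37 and 5.45, a rise of 0.62 ± 0.10 or 1.54-fold (adjusted p = 6.5e-04). Its second probe gave 0.14 (0.233), so the rise was seen by the brighter probe only. In SNU-449 the brighter probe gave 0.02 ± 0.11. *CGN* in SNU-449 rose by 0.42 ± 0.13 (0.0463), and was not called without any 1 of the 3 TGFb arrays or combined replicate 1 or 2 (0.0818 to 0.127). Its change in PLC/PRF/5 was -0.23 (0.0887). *CLDN2* in SNU-449 went from 3.24, 3.32 and 3.15 to 4.11, 3.94 and 3.99, groups that did not overlap, with a change of 0.78 ± 0.25 that was not called (0.0616).

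**Figure D3:**
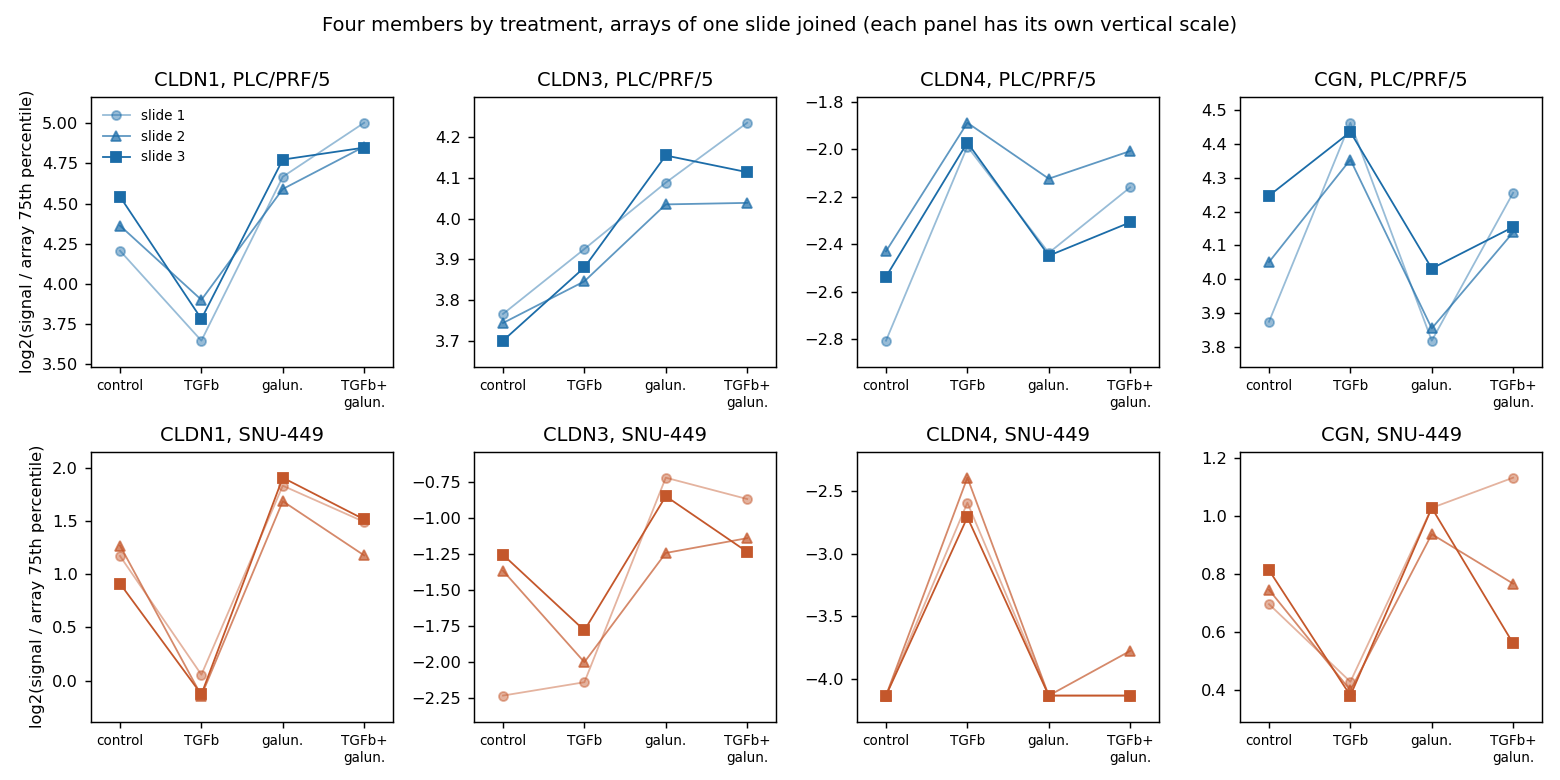
Levels of *CLDN1*, *CLDN3*, *CLDN4* and *CGN* (vertical axis, log2 of signal over the 75th percentile of the array, own scale in each panel) under the 4 treatments, in PLC/PRF/5 (top) and SNU-449 (bottom), with the 4 arrays of one line on the same slide joined. *CLDN1* dipped with TGFb on every slide of both lines, *CLDN4* peaked with TGFb on every slide, and *CGN* lay higher with TGFb in PLC/PRF/5 and lower in SNU-449.

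The interaction asks whether the effect of galunisertib differed with and without added TGFb. Of 8 members in PLC/PRF/5, 1 was called, beside 8.72% of all genes. This was *CLDN1*, whose rise with galunisertib was larger by 0.82 ± 0.15 in the presence of TGFb (adjusted p = 0.00949; 0.203 with median scaling). In SNU-449 the same term was 0.78 ± 0.18 and just missed (0.0560). The slides gave 0.90, 0.73 and 0.84 in PLC/PRF/5 and 0.78, 0.90 and 0.65 in SNU-449. In the latter, *CLDN4* was the 1 of 9 called, beside 2.44% of all genes, with -1.45 ± 0.16 (0.00107). This value and its standard error rest on control and galunisertib arrays at the floor, which had no spread. They also rest on a gene that passed the filter through its TGFb arrays. The *CLDN4* term was -0.40 under normexp, -1.83 with the floor at 0.5 of its value and -2.77 in the deposited normalized values, and was called in none of these (0.175, 0.0712 and 0.203). Between the lines, the TGFb effects of 3 of 9 members differed, those of *CLDN1*, *CLDN4* and *CGN* above, beside 8.59% of all genes.

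Of the other tight junction genes, 8 of 35 tested were called with TGFb in SNU-449, 4 higher and 4 lower, beside the 10.3% of all genes. *PARD6B*, a polarity protein of the Par complex, fell by 1.12 and *AMOTL2*, a scaffold of the angiomotin family, by 0.74, while *JAM2* rose by 1.01, *CLDN14* by 0.80 and *CLDN9* by 0.63. *CLDN9* lay near the floor, with means of -3.82 in the controls, 2 of 3 of them well above background, and -3.19 with TGFb. It passed the filter there only through groups given TGFb. When galunisertib was added, 10 of 35 were called, beside 16.9%, with *PARD6B* at 1.50, *JAM2* at -1.42, *AMOTL2* at 0.96, the polarity protein *PARD6A* at 0.87 and *CLDN14* at -0.64. Galunisertib alone gave 4 of 35, all higher, beside 7.17%, which were *PARD6B* at 0.70, *AMOTL1* at 0.47, *TJAP1* at 0.44 and *AMOTL2* at 0.36.

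TGFb gave calls in 8 of 38 such genes in PLC/PRF/5, 6 higher and 2 lower, beside the 13.4% of all genes. *CGNL1*, the paralogue of cingulin, rose by 1.29, *AMOT* by 0.75, *ILDR1*, a protein of tricellular contacts, by 0.70 and *CLDN9* by 0.69, while *CLDN16* fell by 0.85. Thus *CGN* and *CGNL1* were both called higher there. *CLDN9* lay near the floor in this line too, with means of -3.92 in the controls and -3.23 with TGFb. Adding galunisertib gave 16 of 38, 6 higher and 10 lower, a share close to the 38.9% of all genes, with *CLDN14* at -1.56, *POPDC1* at -0.83, *CLDN16* at 0.82, *AMOT* at -0.78 and *ESAM* at -0.75. Galunisertib alone gave 2 of 38, beside 5.31%, *CLDN14* at -1.23 and *PATJ* at -0.36.

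*CLDN14* was among the genes whose galunisertib effect differed between the lines, at 1.68 (SNU-449 minus PLC/PRF/5, adjusted p = 4.3e-04), with 4 of 40 other junction genes called, beside 5.82%. For the TGFb effect 7 of 40 were called, beside 8.59%, including *PARD6B* at -1.16 and *AMOTL2* at -1.06, detected on 12 of 12 arrays of each line. The calls of *JAM2*, *CLDN16* and *POPDC1* compare 1 line with the floor: *JAM2* was well above background on no PLC/PRF/5 array, *POPDC1* on no SNU-449 array and *CLDN16* on 1 of 12 there. The interaction was called for 3 of 35 in SNU-449 (*CLDN14*, *JAM2* and *AMOTL2*, at -1.09, -1.04 and 0.60), beside 2.44%, and for 1 of 38 in PLC/PRF/5 (*CLDN9*, at -0.86), beside 8.72%. *CLDN9* lay near the floor on the PLC/PRF/5 arrays, at levels from -4.13 to -3.16.

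**Figure D4:**
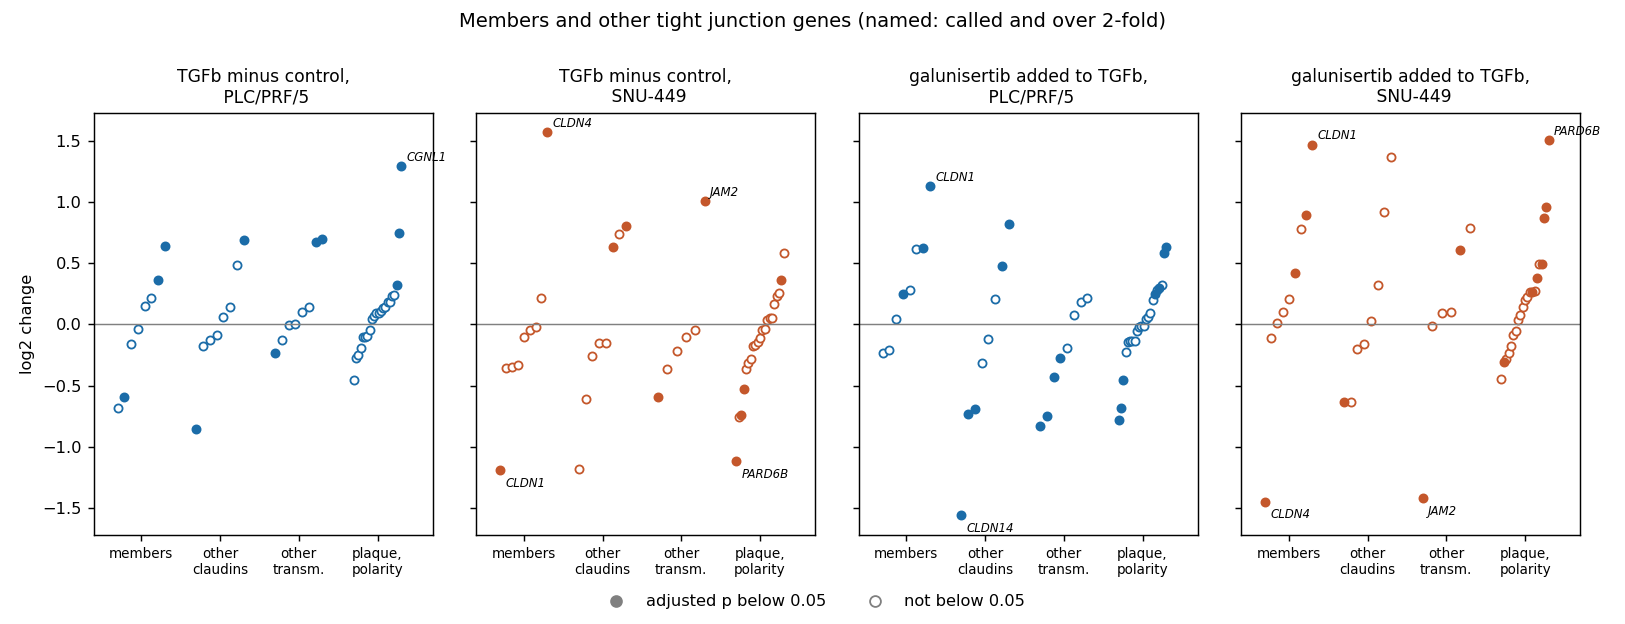
Log2 change (vertical axis) of the members and of other claudins, other transmembrane proteins and plaque or polarity proteins of the junction, ordered by change within each list, for TGFb against control and for galunisertib added to TGFb in each line. Filled points had an adjusted p below 0.05, and those past 2-fold are named. In SNU-449, *CLDN4* and *JAM2* lay at the top with TGFb and at the bottom once galunisertib was added, and *CLDN1* and *PARD6B* the other way round.

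The adherens junction gene *CDH1*, which codes for E-cadherin, was higher in untreated PLC/PRF/5 than in SNU-449 by 3.76. In SNU-449 it changed by -2.00 with TGFb, 1.82 with galunisertib and 2.82 when galunisertib was added to TGFb (adjusted p = 6.7e-04, 0.00285 and 4.8e-05), and in PLC/PRF/5 by 0.22, -0.35 and -0.13, none called.

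Patterns over the 24 arrays were compared by Pearson's correlation after the mean of each line was taken off, among 12799 genes well above background on all arrays. The arrays share the treatments and the scaling, so the values are a description. *CLDN1* was nearest to *ITGA10* (r = 0.976), *ANKRD33B* (0.971) and *EREG* (0.967), and *F11R* to *NOP10* (0.954), *GSKIP* (0.952) and *DERA* (0.951). *CLDN3* was nearest to *KLRG1* (0.925), *SPEF1* (0.904) and *TPCN1* (0.902). The nearest genes were *CHPT1* (0.889), *CCNG1* (0.888) and *HNMT* (0.886) for *OCLN*, *UBE2H* (0.888), *PKD2* (0.882) and *LHPP* (0.865) for *CGN*, and *TOP2B* (0.849), *TSG101* (0.846) and *APOBEC3F* (0.839) for *TJP1*. Among the members themselves the highest value was 0.753, between *CLDN3* and *OCLN*, and *CLDN1* with *CLDN3* gave 0.722.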

How the data were processed

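Cy3-labelled RNA from 24 cultures was read on Agilent 60K arrays (files extracted with Agilent Feature Extraction 10.7.3.1, per the submitters' processing notes). The deposited scanner files hold intensity per spot, background-subtracted by the authors' software. The deposited table holds log2 values that the authors normalized and centred on each probe's median. It served as an alternative, and its differences between arrays correlated with those of the scanner values (r = 0.999, slope 1.00, 19267 probes). How the array design was drawn up is not given in the sources used here.

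Control and flagged spots were left out, and each array was divided by its 75th percentile. Probes were named through RefSeq accessions (31104) or LNCipedia names (10719), and 16378 had no name. A gene was represented by its probe with the highest mean and tested where at least 1 group of the fit had that probe well above background on all its arrays. limma 3.58.1 (R 4.3.3) was fitted on the 12 arrays of a line, or on all 24 for comparisons between lines, with Benjamini-Hochberg adjustment over all genes tested and a threshold of 0.05. Where one group was not well above background, folds are bounds: the bright group's mean over the dim group's, with each dim array at its own signal or at its lowest signal called well above background, whichever was higher. Scripts were tested on simulated data. The files had no mean spot signal, so normexp (offset 50) used median signals and backgrounds.

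limma stands in for the random variance model t-test of the study's methods. All 10 members, the 5 largest calls per comparison among 51 other junction genes, the 3 nearest genes by correlation, *CDH1* and treatment checks were named. Members, lists and tests were chosen with earlier results of these data known. Same-numbered arrays share a slide. Deviations from group means correlated over 0.1 in each pair for TGFb against control (0.129 to 0.222 in SNU-449, 0.169 to 0.298 in PLC/PRF/5), which pairs those groups, and not in every pair elsewhere. Alternatives were other scalings, background correction, filters, probe rules, a floor at 0.5 of its value, a slide block, a plain two-sample t-test (without the random variance model), fits on the compared groups only, and each array left out.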

Additional observations from a re-analysis of the deposited data

Results flagged for a closer look

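Effects of 3 members differed between groups by a test of the difference itself. *CLDN4* was flagged for its TGFb by galunisertib interaction in SNU-449 (-1.45, adjusted p = 0.00107) and for a TGFb effect whose value in SNU-449 exceeded that of PLC/PRF/5 (0.92, 0.00116). It passed the filter in SNU-449 through its TGFb arrays alone, and its control and galunisertib arrays there lay at the floor without spread. Neither value was called under normexp (0.175 and 0.290) or in the deposited normalized values (0.203 and 0.0664). *CLDN1* was flagged for its interaction in PLC/PRF/5 (0.82, 0.00949) and for a TGFb effect that was more negative in SNU-449 (-0.59, 0.0277). The interaction kept its call in 21 of 23 alternatives, but the difference in TGFb effect in only 11 of 23. *CGN* was flagged for TGFb effects in the 2 lines that differed by -0.71 (0.00695). With 3 arrays per group, single arrays were not searched for outlying values.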

How the results depend on the processing

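All 27 called changes of members kept their direction under every alternative that gave a value (508 values, of which 425 kept their call and 83 lost it). The between-line difference of untreated cells gave 8 members called under each other scaling, and 6 where a probe had to be well above background on every array. With the arrays scaled to their median, 0 members were called for galunisertib in either line and for the interaction in PLC/PRF/5, 1 for TGFb in PLC/PRF/5 (*CLDN4*) and for the TGFb line difference (*CLDN4*), and 2 for galunisertib added to TGFb in SNU-449 (*CLDN1*, *CLDN4*). With no scaling, 0 were called for galunisertib in either line, TGFb in PLC/PRF/5, the interaction in PLC/PRF/5 and the TGFb line difference, 2 for galunisertib added to TGFb in SNU-449 and 1 in PLC/PRF/5. Normexp gave 2 for galunisertib in SNU-449, 0 for the interaction there and 1 for the TGFb line difference (*CGN*). The deposited values gave 2 for galunisertib added to TGFb in SNU-449, 0 for the interaction there and 1 for the TGFb line difference. The percentile over probes detected on all arrays gave 2 for the interaction in SNU-449. Requiring detection on every array, which removes *CLDN4* from the SNU-449 fit, gave 1 for TGFb and 0 for the interaction there. A floor at 0.5 of its value also gave 0 for that interaction, and no filter gave 2 for galunisertib added to TGFb in SNU-449. A plain two-sample t-test, without the random variance model of the study's methods, gave 0 for galunisertib in each line and for TGFb in PLC/PRF/5, and a fit on the compared groups alone gave 0 for galunisertib in each line. The replicate block changed the calls in 1 comparison, galunisertib added to TGFb in SNU-449, where the numbers do not pair the arrays: 2 members stayed called, and *CLDN3* and *CGN* did not (adjusted p = 0.0520 and 0.0621). The cause of these changes was not tested, except that the filter removes probes.

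Leaving out 1 array at a time gave 8 members for the untreated lines, 1 for galunisertib in SNU-449, 0 to 1 in PLC/PRF/5, 2 for TGFb in SNU-449, 2 to 3 in PLC/PRF/5, 2 to 3 for galunisertib added to TGFb in each line, 1 to 2 for the interaction in SNU-449, 1 in PLC/PRF/5, 0 for the galunisertib line difference and 2 to 3 for the TGFb line difference. The members not called changed sign in 14 of 68 values with median scaling and in 14 of 68 with none. Median scaling moved the median of all genes from 0.07 to -0.27 between the untreated lines, from 0.01 to -0.15 for galunisertib added to TGFb in SNU-449 and from 0.06 to 0.23 in PLC/PRF/5. The number of all genes called, 1163 for galunisertib in SNU-449, lay between 87 and 1521 over the alternatives, and that for TGFb in PLC/PRF/5, 2253, between 487 and 2445. Signal near background limits *CLDN4*, *CLDN6* and *CLDN7*.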
